A study of Mus musculus with 9 samples.

Results

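Glycogen synthesis and breakdown was followed through 9 genes in the liver of mice fed chow or a high-sucrose diet (HSD). The genes were found by their symbols from a list of glycogen genes. All 9 were among the 19329 gene symbols of the deposited tables, and all 9 passed the filter on low counts that left 12091 genes to test. *Ugp2*, *Gyg*, *Gys2* and *Gbe1* serve synthesis, *Pygl* and *Phkg2* serve breakdown, and *Ppp1r3b*, *Ppp1r3c* and *Ppp1r3g* encode targeting subunits of protein phosphatase 1. Poly-A RNA was sequenced from the livers of 9 C57BL/6J mice, an inbred laboratory strain, of which 5 stayed on chow (Chow) and 4 received HSD. HSD began at the age of 8 weeks and lasted 3 weeks, so that every liver was taken at 11 weeks. Each library came from its own animal, and the labels name no other treatment. The sources used here state no sex, feeding state or hour of sampling, and glycogen itself was not analysed here.

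Glycogen is the branched glucose store of the liver. UDP-glucose made by the product of *Ugp2* is the donor, glycogenin (*Gyg*) provides the primer, liver glycogen synthase (*Gys2*) lengthens the chains and the branching enzyme (*Gbe1*) adds the branch points. Liver glycogen phosphorylase (*Pygl*) releases glucose 1-phosphate and is switched on by phosphorylase kinase, whose catalytic subunit in liver is encoded by *Phkg2*. The targeting subunits bring protein phosphatase 1 to the glycogen particle, where it activates the synthase and inactivates the phosphorylase. Much of this control acts on the proteins, and RNA levels do not measure it.

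On the mouse genome GRCm38 with GENCODE annotation, *Ugp2* lies at chr11:21321138-21371201 (minus strand), *Gyg* at chr3:20122084-20155317 (minus), *Gys2* at chr6:142422613-142473109 (minus) and *Gbe1* at chr16:70313949-70569716 (plus). *Pygl* lies at chr12:70190811-70231488 (minus) and *Phkg2* at chr7:127573340-127583307 (plus). The targeting subunits lie at chr8:35375739-35388139 (plus, *Ppp1r3b*), chr19:36731731-36736653 (minus, *Ppp1r3c*) and chr13:35958839-35970388 (plus, *Ppp1r3g*). Each of the 9 genes therefore has a chromosome of its own. The RefSeq promoter table (GRCm38.p6, 250 bases before to 50 bases after a start) held an entry for 7 of the 9 genes. *Gys2* and *Ppp1r3b* had none, so the searches below do not cover them and no stretch of theirs is shown. The E-box, searched below, was chosen as a sugar- and clock-responsive element, and the clock protein encoded by *Arntl* binds it with its partner. The stretch before *Gbe1* is shown because this gene rose on HSD, and the stretch before *Ppp1r3c* because it holds an E-box, marked by capitals. Both are printed 5′ to 3′ on the strand of the gene and end at the first base before the GENCODE gene, at chr16:70313699-70313948 for *Gbe1* and chr19:36736654-36736854 for *Ppp1r3c*.
Gbe1: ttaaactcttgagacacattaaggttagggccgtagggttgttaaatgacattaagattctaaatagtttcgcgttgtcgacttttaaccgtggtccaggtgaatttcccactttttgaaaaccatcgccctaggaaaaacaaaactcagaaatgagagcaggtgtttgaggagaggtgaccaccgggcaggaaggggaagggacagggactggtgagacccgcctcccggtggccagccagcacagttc
Ppp1r3c: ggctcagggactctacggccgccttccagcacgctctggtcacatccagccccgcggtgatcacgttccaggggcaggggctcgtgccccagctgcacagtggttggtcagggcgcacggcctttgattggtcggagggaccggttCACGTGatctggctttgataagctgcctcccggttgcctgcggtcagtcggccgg
The letters CACGTG, which read the same on both strands, occurred in 2349 of 32851 promoters (7.15%) and in those of 2 of the 7 genes with an entry. In *Ppp1r3c* the match began 104 bases before the RefSeq start (position -104), and in *Gyg* it began at base 8 after it. The cyclic AMP response letters TGACGT, searched on both strands, were in 7.51% of promoters and in that of *Ppp1r3g* (position -40). The forkhead letters TGTTTAC, searched on both strands, were in 3.65% of promoters and in 0 of the 7. A match of letters is a description of these windows, and binding was not measured.

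The libraries held 12769668 to 25913869 estimated counts on chow and 14040723 to 24825322 on HSD. Chow 1 stood apart through *Saa2*, an acute-phase gene, with 10112 CPM (counts scaled to the library size) against 3.69 to 39.5 CPM in the other livers. *Arntl*, a clock gene that oscillates in liver, reached 4.40 CPM in Chow 1 and 9.24 CPM in Chow 3 and ranged from 1.35 to 1.63 CPM in Chow 2, Chow 4 and Chow 5, beside 4.20 to 9.15 CPM on HSD. *Dbp*, a clock output gene, ran the other way, with 43.3 CPM in Chow 1, 27.4 CPM in Chow 3, 114 to 129 CPM in Chow 2, Chow 4 and Chow 5 and 35.1 to 96.2 CPM on HSD. Hepatocyte markers summed to 46896 to 101510 TPM (transcripts scaled for length and library) on chow and 79559 to 104045 TPM on HSD. Of these 8, edgeR called 1 lower, beside 3.23% of all genes. At an unadjusted p under 0.05, 2 were lower (11.6% of all genes), and DESeq2 called 2 lower (5.83%). Summed markers of skeletal muscle, which has its own glycogen genes, stayed at or below 0.194 TPM, and those of adipocytes at or below 0.665 TPM. Kupffer cell markers summed to 111 to 210 TPM on chow and 71.4 to 151 TPM on HSD, stellate cell markers to 169 to 256 and 252 to 328 TPM, and cholangiocyte markers to 24.7 to 58.2 and 46.2 to 69.6 TPM. None of the markers of these 3 cell types passed edgeR, and at an unadjusted p under 0.05 the counts were 4 lower of 8, 3 higher of 6 and 2 higher of 5, where 11.6% of all genes were lower and 12.1% higher at that threshold. DESeq2 called 0 lower, 2 higher and 1 higher of them, against 5.83% of genes lower and 5.46% higher. The part of these shifts in the results below was not tested, and in whole liver fewer cells of a type cannot be told apart from less RNA per cell.

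On the per-length TPM scale, the phosphorylase gene was the most abundant of the 9 on both diets. On chow, mean levels (SD, n = 5) were 252 ± 67.5 TPM for *Pygl*, 181 ± 79.5 TPM for *Ugp2* and 145 ± 78.4 TPM for *Gys2*. Next came *Gbe1* at 43.6 ± 14.1 TPM, *Ppp1r3b* at 40.4 ± 11.8 TPM, *Phkg2* at 16.4 ± 0.80 TPM and *Ppp1r3c* at 12.1 ± 3.66 TPM. *Gyg* at 4.58 ± 0.32 TPM and *Ppp1r3g* at 1.27 ± 1.37 TPM closed the order. The ranges of neighbours in this order overlapped from *Pygl* down to *Ppp1r3b* and again between *Phkg2* and *Ppp1r3c*, so these neighbours were not separated by the spread between mice. On HSD (n = 4) the order was *Pygl* (350 ± 33.9 TPM), *Ugp2* (259 ± 20.2 TPM), *Gys2* (112 ± 19.8 TPM), *Ppp1r3b* (84.4 ± 17.9 TPM) and *Gbe1* (76.1 ± 7.55 TPM). Below them were *Ppp1r3c* (22.8 ± 5.22 TPM), *Phkg2* (15.9 ± 0.69 TPM), *Gyg* (3.78 ± 0.99 TPM) and *Ppp1r3g* (1.86 ± 0.59 TPM). Here *Pygl*, *Ugp2* and *Gys2* had ranges that did not overlap, whereas *Gys2*, *Ppp1r3b* and *Gbe1* overlapped with their neighbours.

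**Figure D1:**
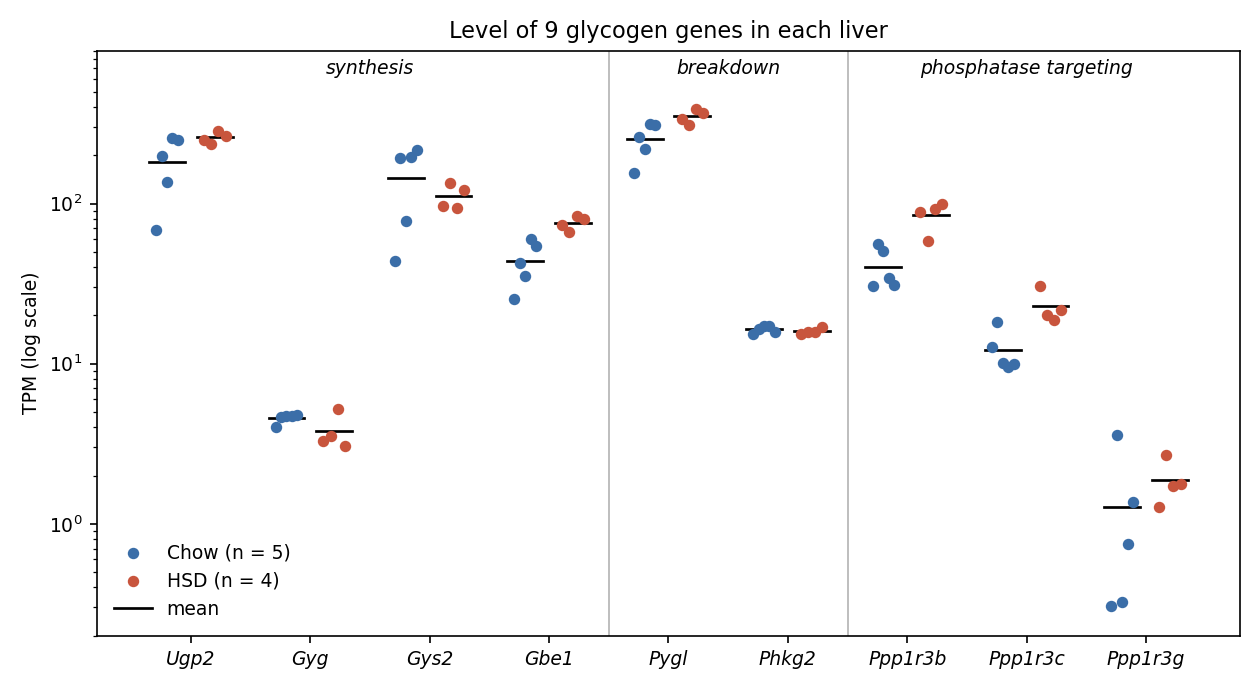
Level of each gene in every liver, in TPM on a logarithmic axis, with chow in blue (n = 5), HSD in red (n = 4) and a black line at the arithmetic mean. In TPM the HSD points of *Gbe1*, *Ppp1r3b* and *Ppp1r3c* all lie above their chow points. The gap is narrow for *Ppp1r3b* (58.3 against 55.7 TPM) and *Ppp1r3c* (18.8 against 18.3 TPM). In CPM this held for *Gbe1* alone, and the share of all genes apart in TPM was not counted. *Gys2*, *Ugp2* and *Ppp1r3g* spread more on chow than on HSD.

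The question put to the diets was whether the genes of synthesis, breakdown and phosphatase targeting stood at other levels after HSD than on chow. *Gbe1* and *Ppp1r3b* rose, by 1.59-fold and 1.86-fold, and the other 7 genes did not pass the test. Thus 2 of 9 genes were called higher, against 3.44% of all genes tested, and 0 were called lower, against 3.23% (edgeR, adjusted p under 0.05, 6.67% in either direction). At an unadjusted p under 0.05, 4 of the genes lay higher and 2 lower, against 12.1% and 11.6% of all genes (23.7% in either direction). DESeq2 called 3 higher and 0 lower, against 5.46% and 5.83% of genes, and limma voom likewise called 3 higher and 0 lower, against 3.62% and 3.15%. Over all genes, edgeR called 416 higher and 391 lower with TMM and 569 and 254 with library totals, and limma on log2(TPM + 1) called 475 and 101 while the median of all genes moved to 0.14. By role, 1 of 4 synthesis genes, 0 of 2 breakdown genes and 1 of 3 targeting subunits passed, with median log2 fold changes of -0.03, 0.06 and 0.74 beside -0.0039 over all genes tested. The median over the 9 genes was 0.39, and 6 of 9 fold changes were above 0. No gene of the 9 passed at an adjusted p under 0.01 in edgeR, whereas in DESeq2 the adjusted p was 0.00259 for *Gbe1* and 0.000551 for *Ppp1r3b*.

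**Figure D2:**
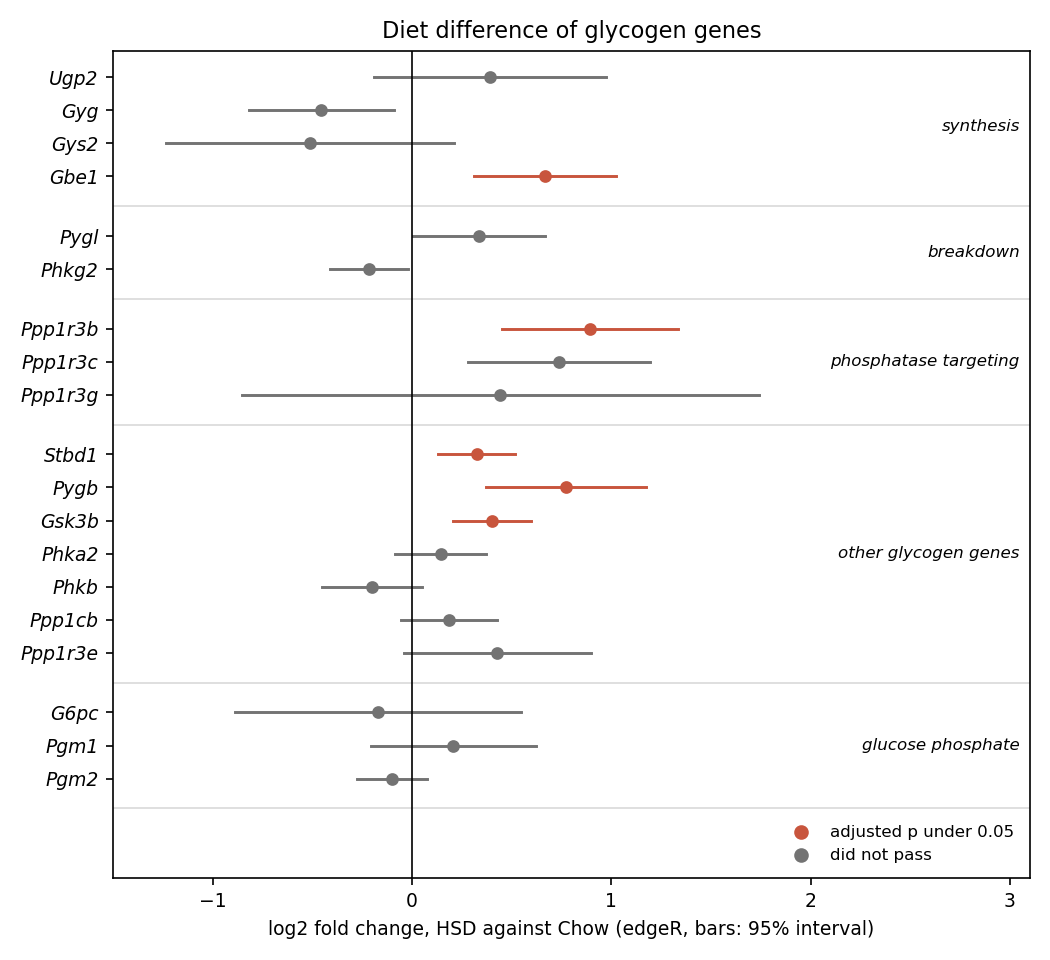
Log2 fold change of HSD against chow in edgeR for the 9 genes by role and for further genes of the pathway, with bars for the 95% interval. Red marks an adjusted p under 0.05, which *Gbe1*, *Ppp1r3b* and 3 of the further genes reached, and the interval of *Ppp1r3g* from -0.86 to 1.74 is the widest.

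Among the synthesis genes, the branching enzyme *Gbe1* stood at 69.2, 98.4, 81.2, 122 and 128.2 CPM in Chow 1 to Chow 5 and at 151, 146, 167 and 171 CPM in HSD 1 to HSD 4. Every HSD liver lay above every chow liver, which held for 5.84% of all genes tested. The log2 fold change was 0.67 (SE 0.16, 95% interval 0.31 to 1.03, adjusted p = 0.0324, edgeR). The call was kept in 3 of the 9 fits that left out 1 liver, and it was lost without Chow 2 (adjusted p = 0.0587, edgeR), Chow 3 (0.0649) or any HSD liver (0.0550 to 0.0974). The library labels fall into 2 series of numbers, series 1 with Chow 1 to Chow 4, HSD 1 and HSD 2 and series 2 with Chow 5, HSD 3 and HSD 4, and within series 1 *Gbe1* gave 0.68 (adjusted p = 0.213, edgeR).

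Glycogen synthase showed another pattern, in which chow livers differed more among themselves than from HSD livers. *Gys2* was at 105, 358, 168, 352 and 418 CPM in Chow 1 to Chow 5 and at 174, 229, 163 and 219 CPM in HSD 1 to HSD 4. Chow 2, Chow 4 and Chow 5 lay above all HSD livers, Chow 1 lay below them and Chow 3 within their range. The highest chow value was 4.00 times the lowest, against 1.41 times on HSD. The log2 fold change of -0.51 (SE 0.33, 95% interval -1.23 to 0.21) did not pass in edgeR (adjusted p = 0.386), and an interval of this width covers a fall as well as a small rise. Without 1 liver it ranged from -0.73 (without Chow 1) to -0.33 (without Chow 5).

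*Ugp2*, which supplies UDP-glucose, was at 135, 359, 248, 428 and 434 CPM on chow and at 400, 389, 458 and 435 CPM on HSD. Its lowest values were those of Chow 1 and Chow 3, and the other chow livers overlapped with HSD. The log2 fold change was 0.39 (95% interval -0.19 to 0.97, adjusted p = 0.414, edgeR) and 0.19 without Chow 1. *Gyg*, the primer protein gene, was at 5.82, 5.96, 6.16, 5.47 and 5.93 CPM on chow and at 3.77, 4.13, 5.87 and 3.49 CPM on HSD. HSD 3 lay among the chow livers and the other HSD livers lay below all of them. Its log2 fold change of -0.46 (95% interval -0.82 to -0.09) had an adjusted p of 0.123 in edgeR, and without HSD 3 it was -0.63 with an adjusted p of 0.0381.

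For breakdown, *Pygl* was at 390, 584, 495, 637 and 685 CPM on chow and at 667, 639, 769 and 744 CPM on HSD. Only Chow 5 reached into the HSD range, and Chow 1 and Chow 3 were again the lowest. The log2 fold change was 0.34 (SE 0.15, 95% interval 0.01 to 0.67, adjusted p = 0.205, edgeR). *Phkg2*, the kinase subunit that activates the phosphorylase, was at 17.7, 17.7, 18.1, 16.3 and 16.1 CPM on chow and at 13.2, 15.3, 15.2 and 15.5 CPM on HSD. All HSD livers were below all chow livers in CPM, which held for 5.51% of genes tested, but in TPM the diets overlapped. Its log2 fold change was -0.22 (95% interval -0.41 to -0.02, adjusted p = 0.170, edgeR), and 23.2% of its 31-base sequences also occur in other genes (19.6% in *Ccdc189*), so that its counts are less certain than those of the other 8 genes, which share at most 1.57%.

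Of the targeting subunits, *Ppp1r3b*, the main one of liver, was at 123, 197, 181, 110 and 107 CPM on chow and at 279, 190, 285 and 314 CPM on HSD. HSD 2 lay just below Chow 2 in CPM, whereas in TPM all HSD livers (58.3 to 98.7 TPM) lay above all chow livers (30.5 to 55.7 TPM). The share of all genes apart in TPM was not counted, and in limma on log2(TPM + 1) the median of all genes was 0.14. The log2 fold change of *Ppp1r3b* was 0.89 (SE 0.20, 95% interval 0.45 to 1.33, adjusted p = 0.0242, edgeR). It passed in 5 of the 9 fits without 1 liver and was lost without Chow 5 (adjusted p = 0.0518, edgeR), HSD 1 (0.0744), HSD 3 (0.0645) or HSD 4 (0.0798). Within label series 1 the value was 0.61 (adjusted p = 0.343, edgeR).

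*Ppp1r3c*, also known as protein targeting to glycogen, was at 31.3, 39.1, 22.3, 18.7 and 21.1 CPM on chow and at 58.1, 40.2, 35.9 and 42.2 CPM on HSD. HSD 3 fell below Chow 2, and the other HSD livers were above all chow livers. The log2 fold change of 0.74 (SE 0.21, 95% interval 0.28 to 1.19) missed the threshold in edgeR (adjusted p = 0.0558), while DESeq2 gave 0.73 with an adjusted p of 0.0122. *Ppp1r3g* was the least abundant, at 0.647, 6.66, 0.577, 1.27 and 2.50 CPM on chow and at 2.07, 4.62, 2.87 and 2.93 CPM on HSD, from 10 to 114 counts per liver. Chow 1 and Chow 3 were the lowest and Chow 2 the highest of all livers, so the diets overlapped. A log2 fold change of 0.44 (SE 0.60, 95% interval -0.86 to 1.74, adjusted p = 0.704, edgeR) does not settle the direction, and the highest chow value was 11.5 times the lowest. Without Chow 2 the value was 1.37 (SE 0.43, adjusted p = 0.0906, edgeR), and with Chow 1 and Chow 3 left out together it turned to -0.14 (adjusted p = 0.897, edgeR).

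Within each liver, levels were also set against *Gys2* as ratios of TPM, which describe relative transcript levels and were not tested. *Gys2* itself ranged from 43.5 to 216 TPM on chow, and this spread enters every ratio to it. The ratio of *Ugp2* to *Gys2* was 1.03 to 1.74 on chow and 1.75 to 3.01 on HSD, so the diets nearly touched. How often ratios of other genes to *Gys2* separate the diets was not counted, and neither *Ugp2* nor *Gys2* passed the test alone. *Pygl* was 1.36 to 3.54 times *Gys2* on chow and 2.29 to 4.11 times on HSD, and *Gbe1* was 0.223 to 0.582 and 0.495 to 0.892 times. Both of these overlapped between diets. *Ppp1r3b* ran from 0.144 to 0.701 times *Gys2* on chow and from 0.432 to 0.976 times on HSD. Among the subunits themselves, *Ppp1r3b* was 2.40 to 4.97 times *Ppp1r3c* on chow and 2.88 to 4.89 times on HSD, nearly the same range.

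**Figure D3:**
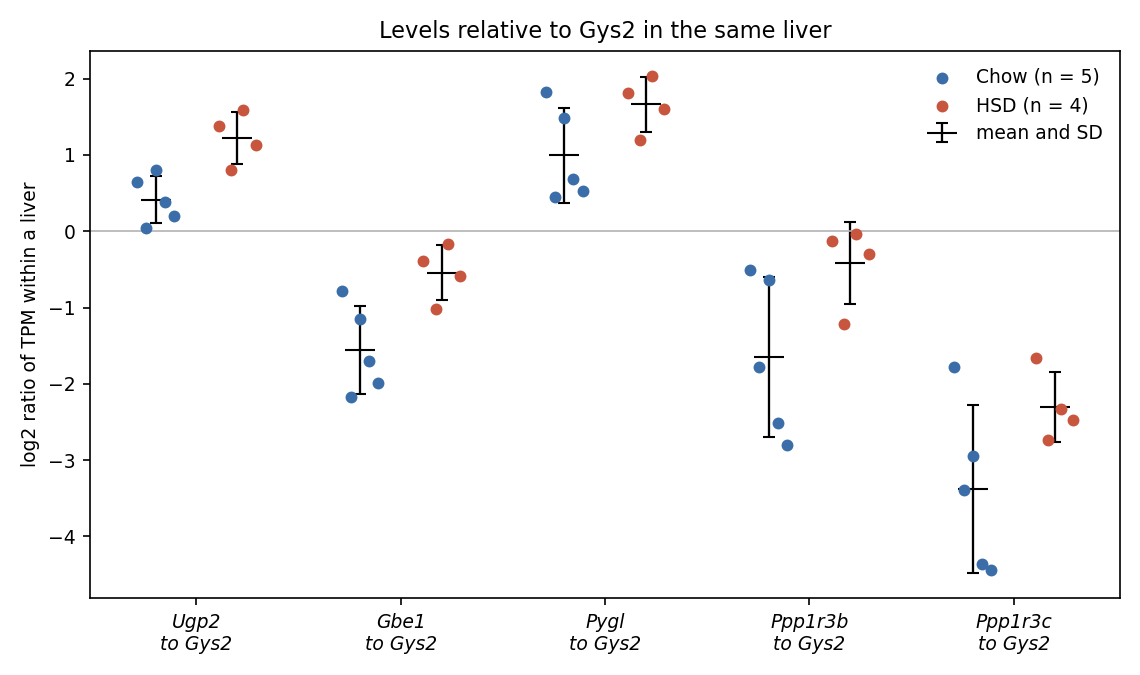
Log2 ratio of TPM to *Gys2* in the same liver for 5 genes, with chow in blue (n = 5), HSD in red (n = 4) and bars for the mean and SD. The *Ugp2* ratio has mean log2 values of 0.42 on chow and 1.23 on HSD, and its highest chow value (0.80) lies just below its lowest HSD value (0.81). The *Ppp1r3b* ratio has means of -1.65 and -0.42 with overlap.

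Since several of the genes were lowest in Chow 1 and Chow 3, the livers in which *Arntl* was high for chow, each gene was fitted with diet and the log2 difference between *Arntl* and *Dbp* together. The slope of *Gys2* on that difference was -0.28 log2 units per log2 unit (SE 0.06), which missed the threshold over all genes (adjusted p = 0.108, edgeR), where 0.314% of genes had a slope past it in either direction. Without Chow 1, the liver with high *Saa2*, the slope was -0.23 (SE 0.03, adjusted p = 0.0186, edgeR), and 0.175% of genes tested then had a negative slope past the threshold. That slope test was chosen after the values were seen. *Ppp1r3g* had a slope of -0.53 (SE 0.16), *Ugp2* of -0.19 (SE 0.06), *Gbe1* of -0.12 (SE 0.04) and *Pygl* of -0.09 (SE 0.04), with adjusted p from 0.205 to 0.359 in edgeR. The slopes of *Gyg*, *Phkg2*, *Ppp1r3b* and *Ppp1r3c* were 0.01 (SE 0.05), 0.01 (SE 0.03), 0.07 (SE 0.06) and 0.04 (SE 0.07).

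With this covariate in the fit, the diet difference of *Gys2* was -0.04 (SE 0.22, adjusted p = 0.928, edgeR). On the covariate, Chow 2, Chow 4 and Chow 5 stood at -6.41 to -6.04 and the HSD livers at -4.48 to -1.93. Only Chow 1 (-3.27) lay within the HSD range, and Chow 3 (-1.56) lay above it. The diet difference in this fit thus depends on a straight line assumed to be shared by both diets. With the covariate, *Gbe1* differed by 0.85 (SE 0.13, adjusted p = 0.00373) and *Ppp1r3b* by 0.81 (SE 0.21, adjusted p = 0.0415), both called by edgeR. In that fit 448 of 12091 genes were called higher and 428 lower. The covariate was taken up because several genes, *Gbe1* among them, were lowest in Chow 1 and Chow 3. The lower adjusted p of *Gbe1* is therefore not independent of that pattern. With Chow 1 and Chow 3 left out together instead, *Gys2* was lower on HSD by a log2 fold change of -0.94 (SE 0.13, adjusted p = 0.00128, edgeR), against 8.76% of genes called in either direction in that fit. This choice was made after the values were seen, and it removes the lowest chow values of *Gys2*. *Gbe1* (0.44, adjusted p = 0.0242) and *Ppp1r3b* (0.94, adjusted p = 0.0233) were still called higher by edgeR in that fit. As the hour of sampling is not stated, its part and that of diet in *Gys2* cannot be told apart.

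**Figure D4:**
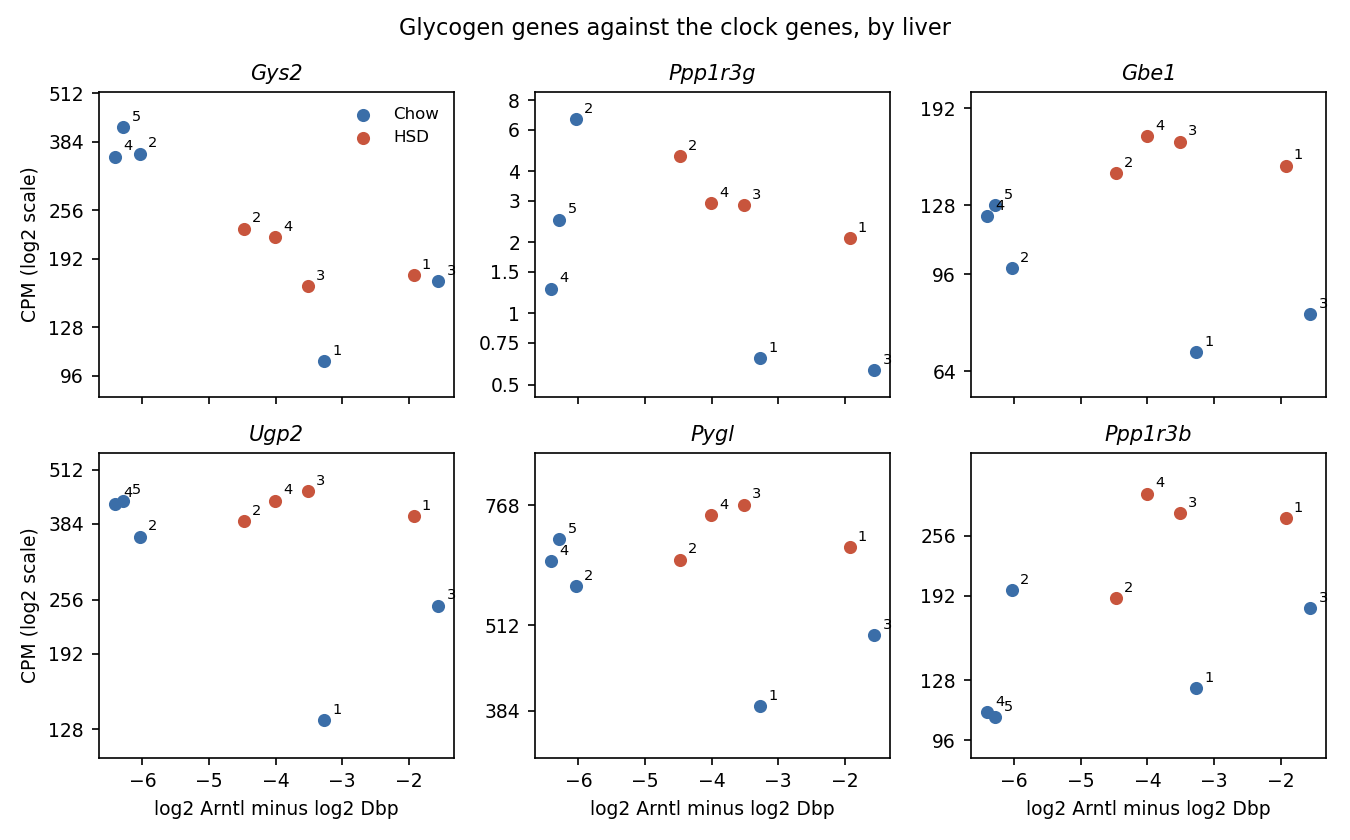
CPM of 6 genes on a log2 axis against the log2 CPM of *Arntl* minus that of *Dbp* in each liver, with chow in blue, HSD in red and the liver number beside each point. *Gys2* is at 352 to 418 CPM in Chow 2, Chow 4 and Chow 5 at the left and at 105 to 229 CPM in the other livers, whereas the HSD points of *Gbe1* all lie above its chow points.

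Further genes of the pathway were counted in 5 lists of other glycogen enzymes, kinases of glycogen enzymes, other phosphatase 1 subunits, glucose phosphate handling and hormone signalling. Of 36 genes tested, 3 rose and 0 fell in edgeR, beside 3.44% and 3.23% of all genes, and the median log2 fold change was 0.06. At an unadjusted p under 0.05, 7 lay higher and 2 lower, beside 12.1% and 11.6% of all genes. DESeq2 called 3 higher and 1 lower, beside 5.46% and 5.83%, and limma voom 3 and 0, beside 3.62% and 3.15%. Other glycogen enzymes accounted for 2 of the 3. *Stbd1*, a protein that binds glycogen, rose from 63.2 to 75.8 CPM on chow to 80.8 to 95.9 CPM on HSD (log2 fold change 0.32, SE 0.09, adjusted p = 0.0489, edgeR). That call was near the threshold and was kept in 0 of the 9 fits without 1 liver, with adjusted p from 0.0511 to 0.128 in edgeR.

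*Pygb*, the phosphorylase isoform known from brain, rose from 3.88 to 5.29 CPM on chow to 6.19 to 10.8 CPM on HSD (0.77, SE 0.18, adjusted p = 0.0297, edgeR). In TPM its diets overlapped, and limma on log2(TPM + 1) gave 0.23 (adjusted p = 0.554). The cholangiocyte markers had fold changes above 0 in 5 of 5 genes, beside 5994 of 12091 genes tested, and none passed edgeR. The largest were those of *Epcam* (0.624 to 1.42 CPM on chow, 1.04 to 3.04 CPM on HSD) and *Krt19* (0.817 to 1.42 and 1.43 to 2.06 CPM). Both rest on 8 to 62 counts per liver, and the other markers of the list gave log2 fold changes of 0.05 to 0.37. The part of these cells in *Pygb* was not tested. Its call was kept in 5 of the 9 fits without 1 liver. The kinase *Gsk3b*, which phosphorylates glycogen synthase and lowers its activity, was at 24.3 to 30.8 CPM on chow and 32.4 to 38.4 CPM on HSD (0.40, SE 0.09, adjusted p = 0.0234, edgeR), with the call kept in 5 of 9 such fits and lost in limma on log2(TPM + 1) (0.42, adjusted p = 0.107).

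*G6pc*, the catalytic subunit of glucose 6-phosphatase, was at 239 to 917 CPM on chow and 329 to 469 CPM on HSD (log2 fold change -0.17, 95% interval -0.89 to 0.55), and its direction turned in TPM, in limma voom and without Chow 2. The phosphoglucomutases *Pgm1* (0.21, -0.21 to 0.62) and *Pgm2* (-0.10, -0.28 to 0.07) did not pass, and *Pgm2* also turned direction in TPM. Mouse annotations differ in which of these enzymes carries which symbol. The symbols are used as deposited, as the annotation release of the authors is not stated. The other phosphorylase kinase subunits *Phka2* (0.14, -0.09 to 0.37) and *Phkb* (-0.20, -0.45 to 0.05) and the phosphatase catalytic subunit *Ppp1cb* (0.18, -0.06 to 0.42) did not pass either. The targeting subunit *Ppp1r3e* gave 0.43 (-0.04 to 0.90), *Ppp1r3d* had 0 to 10 counts per liver and was not tested, and the muscle subunit *Ppp1r3a* was listed at 0 in all 9 livers.

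Of 7 tested genes of the fasting response, 2 rose and 0 fell in edgeR, beside 3.44% and 3.23% of all genes, with the same counts at an unadjusted p under 0.05 (12.1% and 11.6% of all genes), in DESeq2 and in limma voom. They were *Pdk4*, a kinase that restrains pyruvate dehydrogenase (1.12 to 2.31 CPM on chow, 4.67 to 6.76 CPM on HSD, log2 fold change 1.82, SE 0.23, adjusted p = 0.00167, edgeR), and the coactivator *Ppargc1a* (5.30 to 8.76 and 10.7 to 16.3 CPM, 0.93, SE 0.17, adjusted p = 0.00955, edgeR). In both genes every HSD liver lay above every chow liver in CPM, which held for 5.84% of all genes tested. The part of feeding state in these values was not tested.

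For each called gene, the 3 genes with the most similar pattern over the 9 livers were found among 11220 candidates by the root mean square difference of centred log2 CPM. For *Gbe1* these were *Nrn1* (0.12), *Acat2* (0.14) and *Pdha1* (0.14), where *Gbe1* itself varied with an SD of 0.46 log2 units. For *Ppp1r3b* they were *Lgalsl* (0.22), *Shank2* (0.24) and *Cpeb2* (0.25), beside an SD of 0.60 for *Ppp1r3b*. The *Ppp1r3b* pattern thus had no neighbour as close as that of *Gbe1*.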

How the data were processed

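The authors prepared poly-A libraries from mouse liver, sequenced paired reads and quantified them with kallisto (version not stated) on GRCm38. The deposited tables hold, for each gene symbol, unscaled estimated counts and TPM values that the authors scaled per library. The TPM columns summed to 923061 to 945110, so part of the transcripts is outside the table. Kallisto divides reads that fit several transcripts, so genes with shared sequence can trade counts. Of the counts, 34.1% were whole (within 1e-06), and 99.1% of these were even. They were therefore also tested with the counts halved.

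Diets were taken from the labels. Estimated counts were rounded, filtered with filterByExpr (a CPM worth 10 counts in the median library in enough livers for the smaller diet, and 15 counts in total) and normalized by TMM, and diets were compared in edgeR 4.0.16 under R 4.3.3 (quasi-likelihood, diet as the factor, 7 residual degrees of freedom, biological coefficient of variation 0.187). P-values were adjusted by Benjamini-Hochberg over all 12091 genes tested and called under 0.05. CPM include the TMM factors (prior count 2 on the log2 scale). Scripts were tested on simulated data. All pairs of livers of a diet differed by more than sampling noise (chi-square per degree of freedom 14.45 to 245.3 over 16 pairs).

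The 9 genes and the further lists were chosen with earlier results of these data known. Named were the 9 genes, up to 4 genes per further list past the test, a fixed set of further pathway genes, the 3 nearest genes of each called gene, and *Arntl*, *Dbp* and *Saa2*. *Epcam*, *Krt19* and *Ccdc189* were named after their values were seen. Some genes of the lists are not reported here and are left out of the list counts. Alternatives were DESeq2 1.42.0, its size factors in edgeR, scaling by library totals, no count filter, limma 3.58.1 (voom, or log2 TPM with a pseudocount of 1 or 0.1, with or without a minimum mean TPM of 1), the replicate number as a block, the label series, a clock covariate, each liver left out in turn and an adjusted p under 0.01. Shared sequence was counted as 31-base stretches over the GENCODE transcripts. No column of another sample was present (0 columns).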

Additional observations from a re-analysis of the deposited data

Results flagged for a closer look

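In groups of 4 or 5 livers, the highest or lowest value was compared with the gap to its neighbour for each named gene of the pathway, and 1 of 42 groups (2.38%) passed Dixon's 95% limit, while chance flags about 1 in 20 groups. *Phkg2* in HSD 1 was at 13.2 CPM, against 15.2 to 15.5 CPM in the other HSD livers.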

How the results depend on the processing

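The 9 genes kept their direction and side of the threshold in 186 of 216 refits over 24 alternatives, lost a call in 18, gained a call in 11 and turned direction in 1. Most of the 186 belong to the 7 genes that had no call to lose. All 18 losses fell on the called genes, as *Gbe1* kept its call in 14 of 24 alternatives and *Ppp1r3b* in 16 of 24. *Ppp1r3c* passed with DESeq2 (0.73), library totals (0.82), no count filter (0.74), limma voom (0.78) and limma on TPM with a pseudocount of 1 (0.88) or 0.1 (0.93). *Gbe1* missed the threshold (0.85) in limma on TPM over all genes. With the label series as a covariate, *Gbe1* (0.59) and *Ppp1r3b* (0.90) missed it and *Ppp1r3c* (0.85) passed, and in series 1 alone *Gbe1* (0.68) and *Ppp1r3b* (0.61) missed it, as both did (0.67 and 0.89) at an adjusted p under 0.01. With Chow 1 and Chow 3 left out together, chosen after seeing the data, *Gys2* passed (-0.94) and *Ppp1r3g* turned (-0.14). On TPM, *Pygb* (0.23, or 0.34 with a pseudocount of 0.1) and *Gsk3b* (0.42 or 0.47) lost their calls. *G6pc* turned in limma voom (0.0026), on TPM (0.17 in all 3 fits) and without Chow 2 (0.28, from -0.33 over the fits without 1 liver), and *Pgm2* on TPM (0.063, or 0.064 with a pseudocount of 0.1). The log2 ratio of the mean levels of *Phkg2* was -0.04 in TPM and -0.22 in CPM.

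Among the 9 genes, 1 was called higher under limma on TPM over all genes and with the label series, 0 in series 1 alone and at 0.01, and 1 was called lower without Chow 1 and Chow 3. Of the further pathway genes, 1 was called higher under limma on TPM over all genes and with the label series and 0 in series 1 and at 0.01, and 1 was called lower with DESeq2 and without Chow 1 and Chow 3. Over all genes, 647 were higher and 690 lower with DESeq2, 254 lower with library totals, 101 lower with limma on TPM at either pseudocount, 243 and 51 with all genes on TPM, 15 and 19 in series 1 and 97 and 112 at 0.01.

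Leaving out 1 liver at a time, 0 to 3 of the 9 genes were higher and 0 to 1 lower, 0 to 2 further genes were higher and 0 to 1 lower, and 153 to 475 of all genes were higher and 149 to 493 lower. The log2 fold changes ranged from 0.56 to 0.77 for *Gbe1*, 0.80 to 1.03 for *Ppp1r3b*, 0.58 to 0.92 for *Ppp1r3c*, -0.63 to -0.36 for *Gyg*, -0.73 to -0.33 for *Gys2*, 0.19 to 0.52 for *Ugp2* and 0.18 to 1.37 for *Ppp1r3g*. Replicate numbers did not pair the livers, as same-numbered livers correlated at -0.06 to 0.07. With the replicate number as a block, *Ppp1r3b* gave 0.83 and missed the threshold (adjusted p = 0.0876, edgeR), 1 of the 9 and 0 of the further genes were higher, and 220 genes were higher and 205 lower. The lowest depth of the 9 genes was that of *Ppp1r3g*, with 10 to 114 counts per liver.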
